A study of Ovis aries with 3 samples.

Results

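Type 17 lymphocytes, lymphoid cells that transcribe the cytokine gene IL17F, made up 117 of the 15772 cells kept from 3 single-cell libraries of sheep rumen epithelium. They were chosen by measured values. A member had at least 500 genes and under 20% of its UMIs (unique molecular identifiers, here counts of captured RNA molecules) from 13 mitochondrially encoded genes. It also had at least 3 UMIs summed over PTPRC, CD2 and IL7R, at most 1 UMI summed over C1QA, C1QB, C1QC and AIF1, and at least 5 UMIs of IL17F. PTPRC encodes the pan-leukocyte phosphatase CD45, CD2 a lymphocyte adhesion receptor and IL7R the interleukin 7 receptor, whereas the C1q and AIF1 genes mark macrophages. The levels of these 8 genes in the members follow from this choice and are given as a description only.

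Type 17 lymphocytes are T cells and related lymphoid cells of barrier tissues that release the interleukin 17 family and interleukin 22. These cytokines act on epithelial cells, which answer with antimicrobial proteins and neutrophil-attracting chemokines. Interleukin 23 and interleukin 1 sustain the type 17 state, and both conventional T cells with CD4 and gamma delta T cells can adopt it. Gamma delta T cells, whose receptor contains the delta chain encoded by TRDC, are abundant in ruminants.

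The libraries came from Hu sheep, a Chinese breed, at 42 days of age. One diet was milk only, another added alfalfa hay to the milk, and the last added a concentrate starter. Each diet had 1 library, and the labels do not say how many lambs went into it. The tissue was digested with trypsin-EDTA before droplet capture, so the samples held whichever epithelial and intraepithelial cells this digestion released.

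Each diet being a lone library, values were compared without a test. Diet, lamb and library preparation cannot be told apart. All 95% intervals cover counting error only: exact Clopper-Pearson intervals for shares, exact Poisson intervals for levels and exact conditional binomial intervals for ratios. The libraries held 56861548 to 63057979 UMIs, and 3850, 7031 and 4891 cells were kept for milk only, hay and concentrate in that order, with medians of 11021, 5887 and 8050 UMIs. No cell barcode of a member recurred among the members of another library, although 7, 2 and 8 kept barcodes were shared between milk only and hay, milk only and concentrate, and hay and concentrate. Levels below are UMIs summed over the cells of a class per 1000000 UMIs of that class (CPM).

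The type 17 lymphocytes lay almost entirely in the milk-only library. It held 109 of the 117, which was 2.83% of its kept cells (interval 2.33% to 3.41%). The concentrate library held 7, or 0.143% (0.0576% to 0.295%), and the hay library held 1, or 0.0142% (up to 0.0792%). The share with milk only was 19.8 times that with concentrate (9.28 to 50.4 times) and 199 times that with hay (35.0 to 7934 times). The ratio to concentrate was 9.45 after thinning each cell to 1500 UMIs with limits of 1 UMI, and 113 with a minimum of 1000 genes. That last ratio rests on a single concentrate member, a cell of 1598 genes with 89 UMIs of the keratinocyte gene KRT15. The other concentrate members had 594 to 789 genes.

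**Figure D1:**
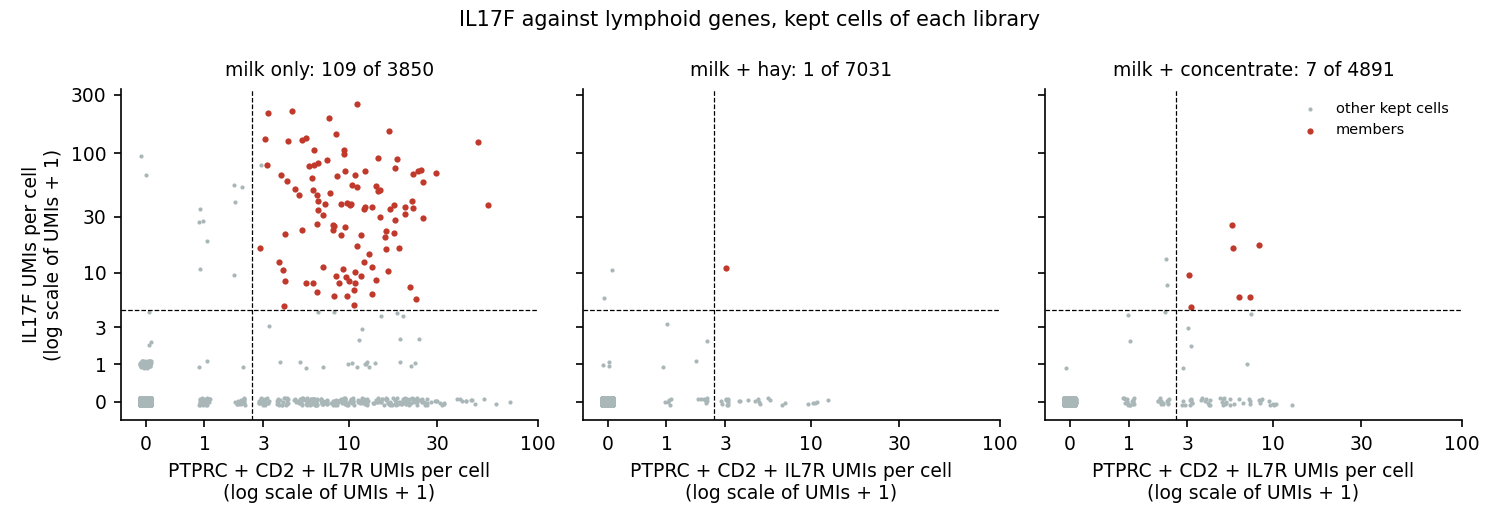
IL17F UMIs per cell (vertical, log scale of UMIs + 1) against summed PTPRC, CD2 and IL7R UMIs (horizontal, same scale) for the kept cells of each library, slightly spread to show overlapping points. Dashed lines mark the limits of 3 and 5 UMIs; the red members number 109 for milk only, 1 for hay and 7 for concentrate, and in the milk-only panel they stand above a row of lymphoid cells with 0 IL17F UMIs.

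Lymphoid cells as a whole were also more frequent with milk only. Cells that met the same lymphoid limits with 4 or fewer IL17F UMIs, called IL17F-low lymphoid cells here, were 5.40% of kept cells with milk only (208 cells), 0.613% with concentrate (30 cells) and 0.114% with hay (8 cells). Within the lymphoid cells, type 17 members were 34.4% with milk only (109 of 317, interval 29.2% to 39.9%), 18.9% with concentrate (7 of 37, 7.96% to 35.2%) and 11.1% with hay (1 of 9, 0.281% to 48.2%). A difference between diets in the type 17 share of lymphoid cells was not tested, each diet being 1 library. Members were also shallower with concentrate (median 2441 UMIs) and hay (2289 UMIs) than with milk only (5431 UMIs), and the part of depth in the limit of 5 UMIs was not tested within lymphoid cells.

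IL17F, the cytokine gene used to choose the members, was concentrated in few cells. Milk-only members carried 5 to 238 IL17F UMIs with a median of 36, and 76 of the 109 had more than 20. They held 5408 of the 6027 IL17F UMIs in kept milk-only cells, or 89.7% (88.9% to 90.5%). The summed level was 7235 CPM in members, 27.4 CPM in IL17F-low lymphoid cells and 4.71 CPM in cells with none of the leukocyte genes of the rule, where 54 of 3342 cells had a UMI. The limit itself passed through a sparse stretch: 188 of the 317 lymphoid cells had 0 IL17F UMIs, 10 had 1, 3 had 2, 2 had 3 and 5 had 4, while 2 had 5, 4 had 6, 2 had 7 and 7 had 8. Outside the members, 12 kept milk-only cells had 5 or more IL17F UMIs, 11 of them with under 3 lymphoid UMIs and 1 with more than 1 macrophage UMI.

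The members also contained keratinocyte RNA. KRT15, a keratin of the basal layer, stood at 2349 CPM in milk-only members and at 8020 CPM in cells with none of the leukocyte genes, a ratio of 29.3% (27.9% to 30.7%). This RNA was unevenly spread: 43 members had no KRT15 UMI, 10 cells held 92.8% of all KRT15 UMIs, and the median member had 2.04% of the keratinocyte-side level. The 15 members with at least 10 KRT15 UMIs per 10000 UMIs had a median of 13011 UMIs, a KRT15 level of 7114 CPM and an IL17F level of 3527 CPM. The other 94 had a median of 5098 UMIs, 137 CPM of KRT15 and 8956 CPM of IL17F. Summed levels of genes that keratinocytes transcribe therefore rest on few members, and no doublet caller was run.

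**Figure D2:**
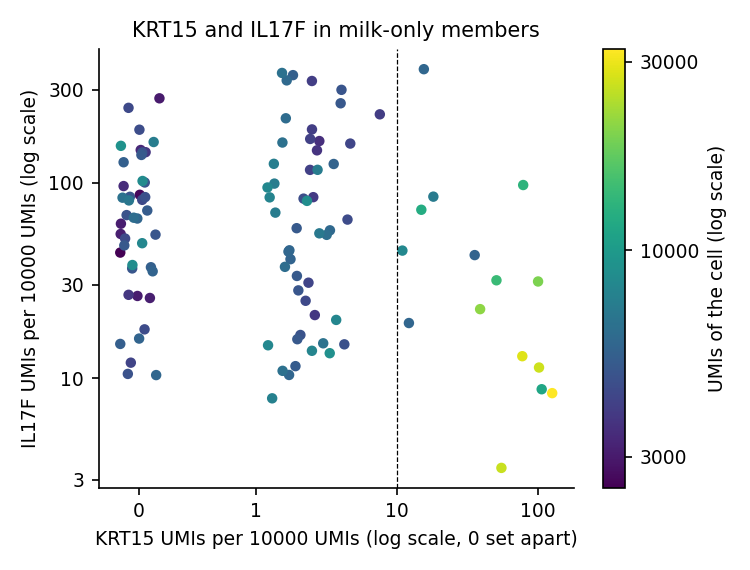
KRT15 (horizontal) and IL17F (vertical) UMIs per 10000 UMIs in each of the 109 milk-only members, on log scales with KRT15 counts of 0 set apart at the left, coloured by the total UMIs of the cell. The dashed line at 10 separates 15 members, whose median was 13011 UMIs, from 94 with a median of 5098.

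Against all other kept cells of the milk-only library, the members were rich in T cell and type 17 genes and poor in keratinocyte genes. CTLA4, an inhibitory receptor of T cells, stood at 459 against 5.18 CPM, 88.5-fold higher (75.1 to 104). F2R, the thrombin receptor, was 52.9-fold higher, ETS1, a lymphoid transcription factor, 40.3-fold, SKAP1, an adaptor of T cell receptor signalling, 39.1-fold, and GATA3, a transcription factor of T cells and innate lymphoid cells, 36.4-fold. RGS1, a brake on chemokine receptor signalling, was 30.5-fold higher, and SRGN, a proteoglycan of secretory granules, 26.7-fold. SAMHD1, FYB1, SLC2A3, LAPTM5 and TNFRSF1B completed the 12 leading genes at 26.7-, 22.1-, 21.9-, 21.5- and 19.2-fold.

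A gene was counted as measured with at least 50 CPM in the members or in the cells they were compared with, and as higher or lower past 2-fold. By this count 428 of 2006 measured genes, or 21.3%, were higher in the members than in the other kept cells and 423, or 21.1%, were lower. The cells and genes that chose the members also enter this contrast, so the counts describe it and test nothing. All 20 measured keratinocyte markers were lower, as were IL1B (126-fold), KRT36 (9.03-fold), the protease inhibitor A2ML1 (7.22-fold), IGFBP5 (5.83-fold), the alarmin S100A12 (5.49-fold), the desmosome gene DSP (5.24-fold) and CMBL (4.84-fold). IL1B was listed here as a macrophage and dendritic cell gene. The 31 genes of that list summed to 20945 UMIs in cells with at least 3 UMIs over the C1q genes and AIF1. They summed to 734 in cells with none of the leukocyte genes. The rule keeps the former cells out of the members.

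Genes of the type 17 programme that the rule did not use were present in part of the members. IL26, a cytokine of type 17 cells, had 53 UMIs in 27 of 109 members and 2 UMIs in 2 of 208 IL17F-low cells, a summed level 54.4-fold higher (14.3 to 461). IL22, which acts on epithelial cells, had 44 UMIs in 14 members, 20 of them in 1 cell, against 7 UMIs in 3 IL17F-low cells. IL17A, the closest relative of IL17F, had 56 UMIs in 12 members and 1 UMI among IL17F-low cells. All 3 cytokines were thus more frequent in members than in IL17F-low lymphoid cells of the same library. Of the 109 members, 64 had a UMI of none of them, 37 of 1, 8 of 2 and 0 of all 3. Each of the 3 was seen in a minority of members. Whether they met less often than these shares alone would give was not tested.

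Receptors that maintain type 17 cells were likewise more frequent in members. IL23R, the specific chain of the interleukin 23 receptor, had a UMI in 36.7% of members and 11.1% of IL17F-low cells, and its summed level was 87.0 against 28.7 CPM. IL1R1, the signalling receptor of interleukin 1, had a UMI in 41.3% against 11.5%, at 116 against 20.8 CPM. After each cell was thinned to 1500 UMIs, which left out 4 IL17F-low cells, the shares were 13.8% against 3.92% for IL23R and 18.3% against 3.92% for IL1R1. In cells with none of the leukocyte genes, IL23R was seen in 0.150% (5 of 3342), whereas IL1R1 was seen in 13.5%. After thinning to 1500 UMIs these shares were 0.0607% and 1.76%. Part of an IL1R1 count can thus come from keratinocyte RNA, and how large a part was not tested.

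Among transcription factors of the type 17 state, IRF4, which acts downstream of the T cell receptor, was at 64.2 against 16.3 CPM in members and IL17F-low cells, 3.94-fold higher (2.38 to 6.68). RORA, a nuclear receptor of type 17 and innate lymphoid cells, was at 140 against 76.8 CPM, or 1.83-fold. STAT3, the transducer of interleukin 23 signals, was at 142 against 99.6 CPM. The chemokine receptor CCR6, typical of type 17 cells, had 0 UMIs in the members, which allows up to 4.01 CPM. In all, 11 of the 33 listed programme genes were measured. Against IL17F-low cells 6 of these were at least 2-fold higher and 1 was lower, beside 2.96% and 4.13% of all measured genes. The lower one was S100A4, a calcium-binding protein of motile cells, at 97.7 against 276 CPM. Against other kept cells 7 were higher and 0 lower, beside 21.3% and 21.1% of all measured genes. The median log2 ratio of the programme genes was 3.34, against 0.05 over all measured genes.

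**Figure D3:**
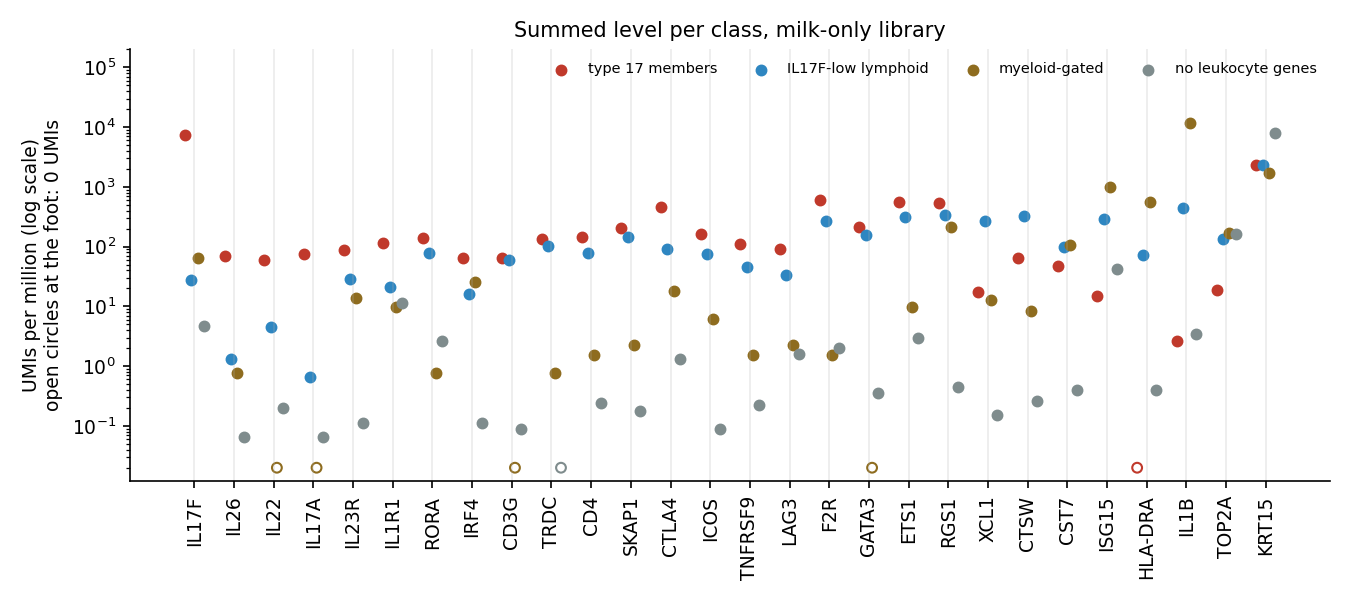
Summed level in CPM (vertical, log scale) of 28 genes in 4 classes of milk-only cells: type 17 members, IL17F-low lymphoid cells, myeloid-gated cells and cells with none of the leukocyte genes; open circles at the foot are counts of 0. IL17F (7235 CPM in members) chose the members; IL26, IL22 and IL17A stand highest in the members, XCL1, CTSW and ISG15 stand lower in members than in IL17F-low cells, and CD3G is near equal in these 2 classes.

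The closest comparison set the members against the 208 IL17F-low lymphoid cells of the same library, which met the same lymphoid and macrophage limits. Few genes separated these classes: 53 of 1793 measured genes, or 2.96%, were at least 2-fold higher in members and 74, or 4.13%, were lower. Median depth was similar, at 5431 and 4861 UMIs, as was KRT15, at 2349 and 2273 CPM. With the cells of at least 10 KRT15 UMIs per 10000 left out of both classes, which kept 94 members at 137 CPM of KRT15 and 181 IL17F-low cells at 141 CPM, 64 genes were higher and 99 lower.

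Receptors that tune T cell activation were mostly higher in the members. CTLA4 was at 459 CPM in members and 89.9 CPM in IL17F-low cells, 5.11-fold higher (4.18 to 6.27), with a UMI in 45 of 109 against 31 of 208 cells. LAG3, another inhibitory receptor, was 2.78-fold higher, TNFRSF9, the costimulator 4-1BB, 2.44-fold, and ICOS, a costimulator of the CD28 family, 2.16-fold. These made 4 of the 5 measured genes of the list, beside 2.96% of all measured genes that were higher. The fifth, TNFRSF4 (OX40), stood lower at 34.8 against 59.3 CPM. IL2RA, the high-affinity chain of the interleukin 2 receptor, was 2.83-fold higher at 53.5 against 18.9 CPM. FOXP3, the factor of regulatory T cells, had 3 UMIs in 2 members.

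Other genes that led this comparison were F2R at 610 against 268 CPM, JMY, a regulator of actin and of p53, at 276 against 86.0 CPM (3.21-fold), and ANKRD12, a nuclear ankyrin repeat protein, at 1885 against 674 CPM (2.80-fold). TIPARP, a target of the aryl hydrocarbon receptor, stood at 1136 against 504 CPM (2.25-fold, 2.04 to 2.49), in 105 of 109 members against 146 of 208 IL17F-low cells. CAST, an inhibitor of calpains, and CNOT6L, a subunit of a deadenylase complex, were 2.35- and 2.23-fold higher. FABP4, the fatty acid carrier that keratinocytes of this tissue transcribe, was also 4.06-fold higher, but 459 of its 589 UMIs in members lay in 1 cell. With the cells rich in KRT15 left out of both classes, FABP4 stood at 129 against 58.8 CPM, 2.20-fold higher (1.53 to 3.17), and the log2 ratio of F2R was 0.95, just under 2-fold.

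Cytotoxic genes went the other way. XCL1, a chemokine of natural killer and CD8 cells, was at 17.4 CPM in members and 266 CPM in IL17F-low cells, 15.3-fold lower, with a UMI in 4 of 109 against 54 of 208 cells. CTSW, a cathepsin of cytotoxic lymphocytes, was at 64.2 against 329 CPM, 5.12-fold lower, in 12 against 75 cells. GZMM, a granzyme, and CST7 were lower too, which made 4 of 6 measured cytotoxic genes lower and 1 higher. Over all measured genes 4.13% were lower and 2.96% higher. The cytotoxic gene that was higher was NCR3, an activating receptor of natural killer and some T cells, at 147 against 68.4 CPM. PRF1, GZMA and CD8A had 0 UMIs in the members. CD8A had 0 UMIs in the 208 IL17F-low cells as well, so its count does not separate the classes.

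Other genes lower in members than in IL17F-low cells were carried by a minority of the IL17F-low cells. IL1B, an inflammatory cytokine, was 164-fold lower, yet its 674 UMIs lay in 12 of 208 IL17F-low cells, with 219 in the highest. ISG15, an interferon-induced ubiquitin-like protein, was 19.5-fold lower, and 150 of its 440 UMIs lay in 1 cell. CST3 was 11.2-fold, IFI30 7.87-fold and NAAA 5.90-fold lower. These 3 genes, like HLA-DRA (0 UMIs in members, 113 in 16 IL17F-low cells), are prominent in antigen-presenting cells. Of 31 macrophage and dendritic cell genes, 22 were at 0 in the members, and their sum was 30.8 CPM in members, 621 CPM in IL17F-low cells and 15953 CPM in myeloid-gated cells. The part of such cells in the differences was not tested, but leaving out the IL17F-low cells with IL1B lowered the count of genes lower in members from 74 to 44. NUCB2, a calcium-binding protein, stood at 68.2 against 203 CPM and was seen in 31 of 109 against 103 of 208 cells.

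Genes of the T cell receptor complex were higher in members than in other kept cells. All 6 measured genes of this list were over 2-fold higher in members than in other kept cells, beside 21.3% of all measured genes. Their median log2 ratio was 5.25. Against IL17F-low cells 0 of 6 differed 2-fold, and the median was 0.48. With 2.96% of all measured genes higher and 4.13% lower against IL17F-low cells, a count of 0 of 6 is near the background. CD3G was at 64.2 and 59.3 CPM, CD3E at 30.8 and 30.6 CPM, and SKAP1 at 206 and 143 CPM. CD4, the helper T cell coreceptor, was at 143 and 77.5 CPM, 1.85-fold higher in members (1.41 to 2.42). A CD3G UMI was seen in 33.9% of members and 31.7% of IL17F-low cells, so most cells of either class lacked one at this depth.

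Lymphoid transcription factors were mixed. GATA3 stood at 214 CPM in members and 154 CPM in IL17F-low cells, ETS1 at 551 and 310 CPM, and IKZF2 (Helios) at 103 and 58.0 CPM. PRDM1 (Blimp-1), a factor of effector and resident lymphocytes, was 2.10-fold higher in members. RUNX3, a factor of cytotoxic T cells, and ID3, an inhibitor of E proteins, were lower, at 52.2 against 145 CPM and 22.7 against 74.9 CPM. By count, 1 of 6 measured factors was higher and 2 were lower, beside 2.96% and 4.13% of all measured genes.

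Genes of tissue residence were shared by both lymphoid classes. RGS1, RGS2 and CD69, which mark T cells retained in tissue, were at 531, 1092 and 104 CPM in members and at 337, 699 and 162 CPM in IL17F-low cells. ITGB7, an integrin chain of intestinal homing, was at 85.6 and 89.2 CPM, and GPR183, an oxysterol receptor that guides lymphocytes, at 305 and 342 CPM. Of 9 measured genes, 0 were 2-fold higher and 1 was lower, the integrin ITGA4 at 17.4 against 69.0 CPM. With 2.96% of all measured genes higher and 4.13% lower, these counts are near the background. CCR7, the lymph node homing receptor, had 0 UMIs in members, and S1PR1, the egress receptor, had 1.

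Of 14 measured activation genes, 0 were past 2-fold between the lymphoid classes in either direction, a count near the background of 2.96% higher and 4.13% lower. TNFAIP3 (A20), an inhibitor of NF-kB signalling, was at 475 CPM in members and 257 CPM in IL17F-low cells, and GADD45B, a stress sensor, at 2393 and 1541 CPM. Against all other kept cells, in contrast, 8 of 15 were higher and 4 lower, beside 21.3% and 21.1% of all measured genes. The activation genes that were higher included NR4A2, an immediate early nuclear receptor (15.7-fold), and NFKB1 (7.71-fold). FOS, JUN, EGR1 and ATF3 were lower. TGFB1 and LTB, secreted cytokines of lymphocytes, were at 151 and 122 CPM in members. TNF, IL2, IL4, IL5, IL13 and CSF2 had 0 UMIs.

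Metabolic genes were mostly within 2-fold, whereas interferon and cell cycle genes were more often lower in members. SLC2A3, a glucose transporter of leukocytes, was at 546 CPM in members and 537 CPM in IL17F-low cells. None of 5 glycolytic genes differed 2-fold, a count near the background of 2.96% higher and 4.13% lower. CYP51A1, of cholesterol synthesis, stood at 368 against 203 CPM and 78.9 CPM in other kept cells. Of 6 measured interferon genes, 4 were lower in members than in IL17F-low cells (median log2 ratio -1.38), as were 2 of 4 cell cycle genes (median -1.83), beside 4.13% of all measured genes. TOP2A, a topoisomerase of dividing cells, was at 18.7 CPM in members, 133 CPM in IL17F-low cells and 167 CPM in other kept cells, and 11 of its 14 UMIs in members lay in 1 cell.

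Markers of other cell types were scarce in the members apart from keratinocyte genes. The 36 keratinocyte markers summed to 6606 CPM in members, 5669 CPM in IL17F-low cells and 21781 CPM in cells with none of the leukocyte genes. All 6 mast cell or basophil genes and all 11 melanocyte or Merkel cell genes were at 0. Of B cell or plasma cell genes 9 of 11 were at 0, of fibroblast genes 11 of 13 and of endothelial genes 11 of 14. Neutrophil markers summed to 903 CPM in members and 3860 CPM in cells with none of the leukocyte genes, and rested on S100A8, S100A9 and S100A12, which keratinocytes also transcribe.

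Against the 86 myeloid-gated cells of the milk-only library (at least 3 UMIs over the C1q genes and AIF1), 272 of 2060 measured genes, or 13.2%, were higher in the members and 404, or 19.6%, were lower. F2R was at 610 CPM in members against 1.52 CPM, and RORA at 140 against 0.762 CPM. All 6 measured T cell receptor genes and 8 of 11 type 17 genes were higher. All 14 measured macrophage or dendritic cell genes were lower, among them the C1q genes and AIF1 that chose the myeloid-gated cells.

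TRDC and CD4 divided the members into groups that did not overlap. This division was chosen after the values were seen and is a description. In the milk-only library 26 of 109 members had a TRDC UMI (23.9%, 16.2% to 33.0%), 51 had a CD4 UMI (46.8%, 37.2% to 56.6%), 32 had neither and 0 had both, where the limit of 3 cells that a count of 0 allows is 2.75%. IL17F-low cells gave the same separation, with 44 TRDC cells, 52 CD4 cells, 112 with neither and 0 of 208 with both. TRDC was seen in 0 and CD4 in 6 of 3342 cells with none of the leukocyte genes. Median depth was 6353 UMIs in TRDC members, 4976 in CD4 members and 5166 in those with neither.

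**Figure D4:**
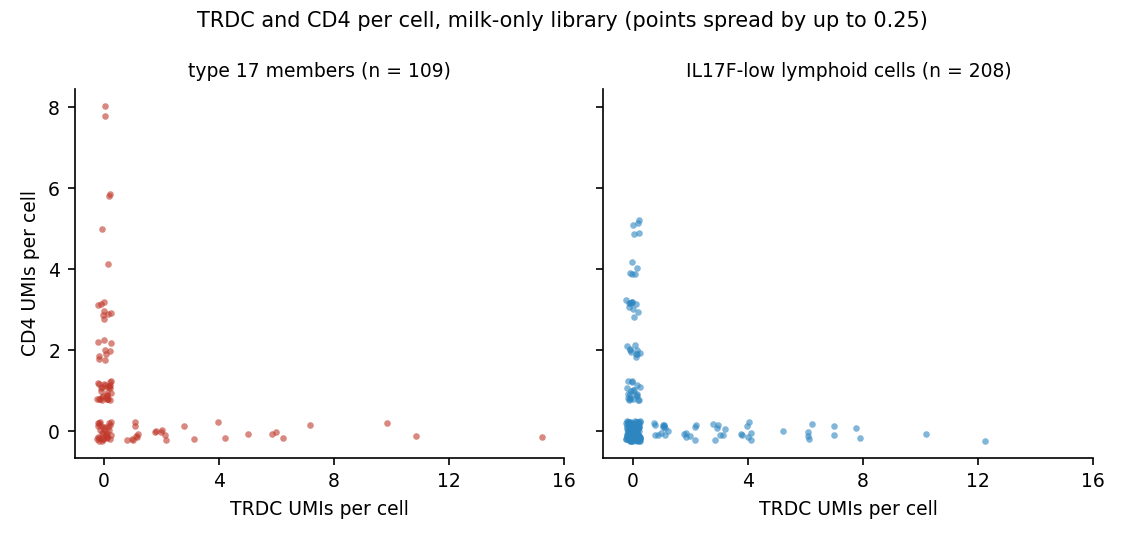
TRDC (horizontal) and CD4 (vertical) UMIs in each milk-only type 17 member (left, 109 cells) and IL17F-low lymphoid cell (right, 208 cells), with points spread by up to 0.25 to show overlaps. Every cell lies along 1 axis or at the origin: 26 and 44 cells have TRDC, 51 and 52 have CD4, and 0 have both.

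IL17F was close between these groups in the median cell. The median was 33.5 UMIs in TRDC members (6 to 104), 37 in CD4 members (5 to 238) and 34.5 in those with neither (5 to 202). Per 10000 UMIs the medians were 60.0, 54.8 and 63.4. The summed levels were further apart, at 4794 CPM with TRDC and 7365 CPM with CD4, a ratio of 1.54 (1.43 to 1.65), and in the members low in KRT15 at 6199 and 9669 CPM. The sums thus put CD4 members higher, while the medians per 10000 UMIs did not.

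CD4 members carried more of the inhibitory receptors CTLA4 and LAG3 and of IL22. CTLA4 had a UMI in 32 of 51 CD4 members and 2 of 26 TRDC members, and its level was 663 against 56.8 CPM, 11.7-fold higher (6.56 to 22.9). LAG3 was seen in 13 against 1, at 130 against 9.47 CPM, and IL22 in 9 against 1, at 103 against 9.47 CPM. Of the 38 IL22 UMIs of CD4 members, 20 lay in 1 cell. TOX2, a factor of activated helper T cells, was seen in 12 CD4 members and KIT, the stem cell factor receptor, in 9, whereas TRDC members had 0 UMIs of either. GATA3 was at 261 against 99.4 CPM and RORA at 158 against 80.5 CPM, 1.96-fold higher (1.13 to 3.59). CD2, which is a gene of the rule, was seen in 37 of 51 CD4 members and in 3 of 26 TRDC members, which met the lymphoid limit mainly through PTPRC and IL7R.

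TRDC members carried more IL1R1 and more of some cytotoxic genes. IL1R1 had a UMI in 20 of 26 TRDC members and 12 of 51 CD4 members, at 170 against 54.4 CPM, 3.13-fold higher (1.77 to 5.71). RGS2 was at 1737 against 685 CPM and TNFRSF9 at 156 against 62.5 CPM. IL2RA was at 61.5 against 27.2 CPM, 2.26-fold higher with an interval that includes equality (0.917 to 5.77). CTSW was seen in 5 TRDC members and 1 CD4 member, at 137 against 2.72 CPM. XCL1 and the kinase BLK, which gamma delta T cells of the type 17 kind express in mice, were seen in 4 and 5 TRDC members and had 0 UMIs in CD4 members. In the 23 TRDC and 41 CD4 members low in KRT15 the CTLA4 ratio was 9.53 and IL1R1 was 2.37-fold higher with TRDC.

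For other genes the interval of the ratio included equality. IL26 was seen in 5 of 26 TRDC members and 11 of 51 CD4 members, at 33.1 and 70.7 CPM, a CD4 to TRDC ratio of 2.13 (0.902 to 5.82). IL23R was seen in 46.2% and 29.4%, at 71.0 and 73.4 CPM, a ratio of 1.03 (0.531 to 2.09). ICOS was seen in 17 and 29, at 142 and 149 CPM, and NCR3 in 16 and 34, at 114 and 144 CPM. The 32 members with neither gene lay between for CTLA4, at 517 CPM in 11 cells, and near TRDC members for IL1R1, at 184 CPM.

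**Figure D5:**
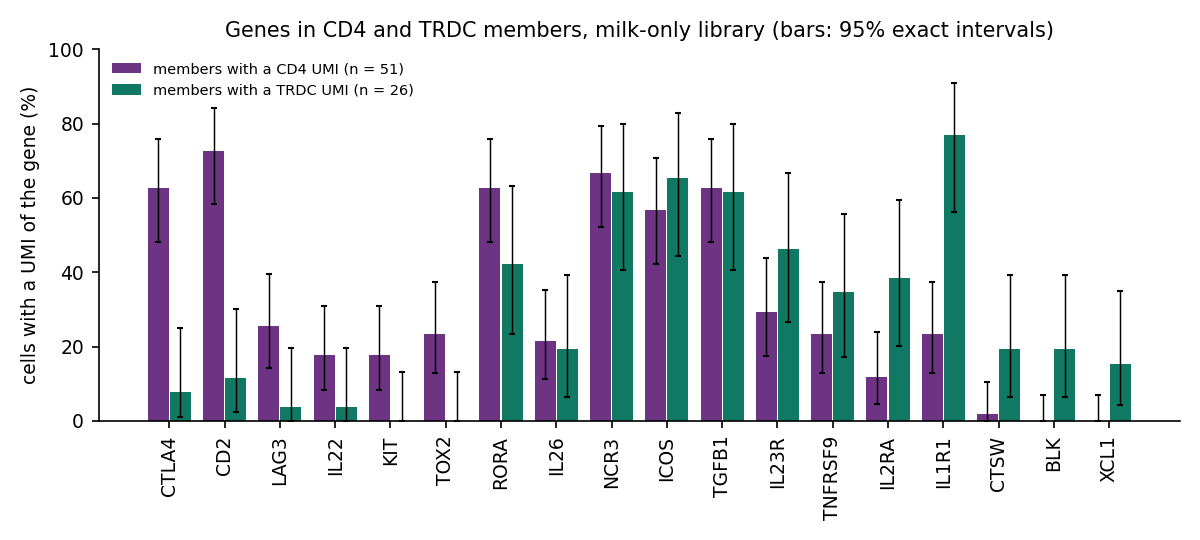
Share of milk-only members with a UMI of each of 18 genes (vertical, percent), for 51 members with a CD4 UMI (purple) and 26 with a TRDC UMI (green); error bars are 95% exact Clopper-Pearson intervals. CTLA4 was seen in 32 CD4 and 2 TRDC members and IL1R1 in 12 and 20, while ICOS, NCR3 and TGFB1 bars are of similar height.

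IL17A was not distributed like IL17F. Members held 56 of the 437 IL17A UMIs of kept milk-only cells, or 12.8%. A single barcode outside the members held 333, or 76.2%, and it had 10 IL17F UMIs and a lymphoid sum of 2, 1 short of the limit. A second such barcode, also with a lymphoid sum of 2, held 43 IL17A UMIs beside 38 of IL17F. The member with most IL17A had 16 UMIs of it beside 222 of IL17F. In the concentrate library, 2 lymphoid cells just under the IL17F limit, with 3 and 4 IL17F UMIs, held 39 and 22 of the 106 IL17A UMIs, and 1 member held 19.

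The 7 concentrate members had 25, 18, 16, 10, 6, 6 and 5 IL17F UMIs in cells of 2062 to 7324 UMIs. Their PTPRC counts in that order were 6, 5, 2, 2, 6, 4 and 0. One of them carried all 21 CTLA4 and all 9 CD4 UMIs of the group, and another carried all 4 TRDC UMIs. The 19 IL17A UMIs lay in another single cell, and 1 more held 89 of the 92 KRT15 UMIs, which summed to 53.9% of the level in concentrate cells with none of the leukocyte genes (43.5% to 66.2%). The hay member had 11 IL17F, 3 CTLA4, 2 KIT and 1 TRDC UMIs among 2289. CTLA4, CD4, TRDC and IL17A of the concentrate members thus each came from 1 cell.

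Against the other kept cells of the concentrate library, 709 of 2106 measured genes, or 33.7%, were higher in the 7 members and 258, or 12.3%, were lower, with a median log2 ratio of 0.51. The members summed to 21820 UMIs, where the minimum of 50 CPM is about 1.09 UMIs, so a gene can be counted on 1 or 2 molecules. Under median-of-ratios scaling, in which the typical gene is set equal, the counts were 527 higher and 496 lower. Genes with at least 5 expected UMIs, a number set from their level in the milk-only members, rest on more molecules. Of 95 such genes that were 2-fold higher in milk-only members, 79 were also 2-fold higher in concentrate members and 0 lower. Of 122 that were lower with milk only, 73 were lower and 1 was higher with concentrate. Over all 501 genes at this minimum, 111 were higher and 105 lower with concentrate. The same rule chose the members of both libraries, so these counts describe the overlap and test nothing.

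Between the members of the 2 libraries, 197 of 2035 measured genes, or 9.68%, were higher with milk only and 576, or 28.3%, were higher with concentrate, with a median log2 ratio of -0.29. Under median-of-ratios scaling the counts were 312 and 446. Among genes with at least 10 UMIs in the higher group, KRT17, CDC42, TNFRSF1B, ZFP36, ANKRD12 and PSMB3 stood highest with milk only. Of the 717 ZFP36 UMIs in milk-only members, 169 lay in 1 cell and only 90 in the 94 members low in KRT15. KRT17, a keratin, was at 776 CPM in the 15 members rich in KRT15 and 200 CPM in the other 94. ANKRD12 (1190 of 1409 UMIs) and TNFRSF1B (446 of 502) lay mainly in those 94. ANKRD12 was at 1885 CPM with milk only and 275 CPM (6 UMIs) with concentrate, and TNFRSF1B was at 672 and 91.7 CPM (2 UMIs). ISG15, IL17A, BAG3, FOS and NUCKS1 were among the genes that stood highest with concentrate, of which IL17A was the 19 UMIs of 1 cell and ISG15 was 14 UMIs with 11 in 1 cell. SLC2A3 was spread over all 7 concentrate members, at 1650 CPM (36 UMIs) against 546 CPM with milk only. IL17F itself was at 7235 CPM with milk only and 3941 CPM with concentrate.

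Genes without a symbol were also prominent. ENSOARG00000014413 was seen in 106 of 109 members at 4659 CPM, in 180 of 208 IL17F-low cells at 3623 CPM and at 6.51 CPM in cells with none of the leukocyte genes. ENSOARG00000014546 was seen in 71 members at 203 CPM against 69.7 CPM in IL17F-low cells. The files pair neither with a symbol.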

How the data were processed

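The deposited matrices are unnormalized UMI counts that the authors made with Cell Ranger, for which the submitters' processing notes give version 3.1 and the file headers 5.0.0. Genome build, annotation and barcode selection: not given in the sources used here. Of 26247 listed genes, 14653 had a symbol carried by 1 identifier, and only these are named. The identifiers had 0 matches in the reference table, and no sequences are printed.

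Cells were filtered and classed by raw UMIs as stated in the report. Counts were summed per class and scaled to CPM. With 1 library per diet no test was made. Where a class had 0 UMIs of a gene, 3 UMIs set its upper limit, and no ratio is given where that limit bounds nothing. No doublet caller was run and doublets were kept. For shares compared across depths each cell was thinned to 1500 UMIs.

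The members, gene lists and markers were chosen with earlier results of these data known. The text names the genes of the rule, KRT15, the 12 highest and 8 lowest ratios against other kept cells and the 8 highest and 8 lowest against IL17F-low cells with at least 200 CPM, 6 each way between libraries, up to 4 genes per list with the largest ratios, and a fixed set of T cell and type 17 genes. Others were named after their values were seen, to fill out a list or the split by TRDC and CD4. Ribosomal protein and mitochondrially encoded genes were left out, and some genes that these rules select are not reported here.

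Alternatives changed the cell limits, the minimum level, the scaling, the reference cells and the treatment of keratinocyte RNA. Scripts were tested on simulated data. The scripts used matplotlib 3.10.9, pandas 2.3.3, scipy 1.17.1 and numpy 2.4.6 under Python 3.11.15.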

Additional observations from a re-analysis of the deposited data

Results flagged for a closer look

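For 3 genes the members stood on opposite sides of the other kept cells in the milk-only and concentrate libraries. With 1 library per diet the difference was not tested, and the cause was not tested. FOS, an immediate early gene, had a log2 ratio of -1.81 with milk only (367 against 1282 CPM) and 1.46 with concentrate, where 32 UMIs lay in 5 of 7 members. ISG15 had -2.43 with milk only (11 UMIs) and 7.04 with concentrate, where 11 of 14 UMIs lay in 1 of the 3 members that had any. NUCKS1, a chromatin-associated protein, had -0.81 with milk only and 1.23 with concentrate, where 18 UMIs lay in 6 members.

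Barcodes that failed the cell limits also held IL17F, with 100 UMIs for milk only, 17 for concentrate and 8 for hay. In the milk-only library 1 of the 3182 barcodes not kept met the lymphoid and IL17F limits.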

How the results depend on the processing

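With 1 library per diet and counting error only, small differences are limited by depth, above all in the 7 concentrate members (21820 UMIs) and the hay member. No paired analysis was possible because each diet had 1 library, so the groups share fewer than 2 replicate numbers. Over the alternatives, 68 values of counts and shares stayed near their main value and 41 moved. Among values of single named genes, 1654 stayed within their interval, 677 moved outside it on the same side and 3 reversed.

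The milk-only share of members was 2.33% with a minimum of 300 genes and 3.45% under 10% mitochondrial UMIs. In the hay library it was 0% with a lymphoid sum of at least 5 or at least 1000 genes. In the concentrate library it was 0.0248% with at least 1000 genes, which left a single member, and 0.309% after thinning with limits of 1 UMI.

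Against other milk-only cells, genes higher and lower numbered 694 and 670 with totals without the 50 most abundant genes, 1107 and 1263 with a 10 CPM minimum, and 2362 and 1856 without one. Against IL17F-low cells these settings gave 90 and 171, 309 and 423, and 1367 and 849. Subtracting keratinocyte RNA gave 176 and 276, members under the median KRT15 gave 157 and 200, and members under 10 KRT15 UMIs per 10000 gave 131 and 170. With at least 1000 genes 80 were higher, and with IL17F-low cells without IL1B 44 were lower. These 2 KRT15 filters left out members but no IL17F-low cells, which kept 2273 CPM of KRT15, and so set the classes apart in keratinocyte RNA. With the filter of 10 per 10000 on both classes the counts were 64 and 99. The KRT15 settings and the IL1B setting were added after seeing the data, except the median split.

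Against other concentrate cells, genes higher numbered 1300 by mean per-cell CPM, 1538 without the 50 most abundant genes, 1585 at 10 CPM, 1576 without a minimum and 1813 after subtraction. They numbered 1167, with 112 lower, at 10 or more IL17F UMIs. Lower genes numbered 496 under median-of-ratios scaling and 78 with at least 1000 genes, where a single member was left. Between libraries, median-of-ratios scaling gave 312 genes higher with milk only.

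Carried-over keratinocyte RNA was 26.6%, 0% and 5.88% in the milk-only, hay and concentrate members by the median of 10 genes, where KRT15 gave 29.3%, 6.93% and 53.9%, and 2.04% with milk only and 0% with concentrate by the median member. FABP4 against IL17F-low cells reversed to a log2 ratio of -0.80 in members under the median KRT15 and -0.59 in members under 10 per 10000, both against unfiltered IL17F-low cells, and was 1.14 with both classes filtered. IL1B reversed to 0.32 once the IL17F-low cells with IL1B were left out, which sets it to 0 there by construction.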
